A study of Homo sapiens with 6 samples.

Results

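The 4 HOX gene clusters A to D were examined for RNA cross-linked to FLAG-Angel1, with 38 HOX genes named from HOXA2 to HOXD13. Members were the rows of the deposited eCLIP cluster lists that overlapped 1 of 4 windows on GRCh37 by at least 1 nt, on either strand. The windows were chr7:27130000-27255000 for HOXA, chr17:46600000-46810000 for HOXB, chr12:54330000-54450000 for HOXC and chr2:176950000-177056000 for HOXD. In total, 512 of 205520 clusters were members, of which 254 of 102843 came from FLAG-Angel1 replicate 1, 255 of 96960 from FLAG-Angel1 replicate 2 and 3 of 5717 from the control. To avoid confusion, "window" below means a HOX gene cluster and "cluster" means a cluster of eCLIP reads.

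The study asked which RNAs Angel1, a human member of the CCR4 deadenylase family, contacts in cells. By eCLIP, RNA joined to a protein by UV light is pulled down with an antibody (the IP) and sequenced beside a size-matched input taken before the pull-down. All 6 libraries came from Flp-In T-REx HEK293 cells, an embryonic kidney cell line that carries a site for inducible constructs, given 5 ng/mL tetracycline for 24 h and, per the labels, UV light of 254 nm at 400 mJ/cm2. N-terminally FLAG-tagged Angel1 was made from a tetracycline-regulated promoter at a level its authors judged close to that of the natural protein, with IP and input in 2 replicates. The control had 1 IP and 1 input, labelled FLAG-only. The genotype label of the control libraries is also FLAG-Angel1, whereas the study's methods describe control cells without a FLAG fusion protein. The methods also mention a sample without UV light, which no label marks, so cross-linking of the control rests on its labels. Nothing states whether the replicates were separate cultures.

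HOX genes encode transcription factors that bind DNA through a homeodomain and give cells their position along the head-to-tail axis. Within a window the genes lie in the order in which they act along that axis, with the low-numbered paralogues, which act nearest the head, at one end and the high-numbered ones at the other. Much of their control acts after transcription, since microRNAs of the miR-10 and miR-196 families are encoded between the genes and pair with HOX mRNAs, and long noncoding RNAs such as HOTAIR run against the direction of the HOX genes. Kidney development depends on HOXA11, HOXC11 and HOXD11.

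All 38 HOX genes were found in the RefSeq gene table, which gave their order. From the low to the high coordinate, the HOXA window ran from HOXA2 to HOXA13, the HOXB window from HOXB1 to HOXB13, the HOXC window from HOXC13 to HOXC4 and the HOXD window from HOXD13 to HOXD1. The same table placed 23 long noncoding RNAs and 8 microRNAs between the first and last HOX genes of the windows, among them HOTAIR, HOXA11-AS, MIR10A, MIR10B and MIR196B. Because that table uses another genome build, no cluster was assigned to a single gene, and positions below are given in GRCh37 and as the distance from the low-coordinate edge of the window.

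The HOX windows were rich in clusters of both replicates. Replicate 1 had 45.3 clusters per 100 kb over the 4 windows and 3.89 over the rest of the same chromosomes, a ratio of 11.6, and replicate 2 had 45.5 and 3.67, a ratio of 12.4. The ratio for HOXA was 21.8 in replicate 1 and 26.4 in replicate 2. For HOXD it was 17.1 and 17.4, for HOXC 11.6 and 9.33, and for HOXB 3.47 and 4.16. The replicates thus gave the windows the same order by this ratio. Of the 4 windows, HOXB had the lowest density, 31.9 clusters per 100 kb in replicate 1 and 35.7 in replicate 2. The rest of its chromosome had the highest, 9.18 and 8.59. HOXA held 81 clusters in replicate 1 and 89 in replicate 2, HOXB 67 and 75, HOXC 61 and 48, and HOXD 45 and 43. A cluster marks reads in the IP whether or not they exceed the input. The amount of RNA made from the windows was not measured, and its part in these counts was not tested.

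Most of these clusters lay on the strand of the HOX genes. The sense share was 85.4% in replicate 1 (217 of 254, Wilson 95% interval 80.6 to 89.2) and 93.3% in replicate 2 (238 of 255, 89.6 to 95.8). These and all other intervals cover counting error only. In replicate 1 the antisense clusters numbered 15 in HOXA, 4 in HOXB, 13 in HOXC and 5 in HOXD. In replicate 2 they numbered 13, 1, 3 and 0. The numbers were close in HOXA, whereas HOXB, HOXC and HOXD had more antisense clusters in replicate 1.

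Few of the clusters passed as enriched, meaning that the authors' P for IP over input was under 0.05 with a log2 fold above 0. In replicate 1, 20 of 254 HOX clusters were enriched (7.87%, 5.15 to 11.8), against 11.7% of all clusters of that library, which lies just inside the interval. In replicate 2, 59 of 255 were enriched (23.1%, 18.4 to 28.7), against 40.7% of all clusters, which lies above it. At the stricter threshold of 0.001, 6 HOX clusters passed in replicate 1, where 4.22% of all clusters did, and 7 in replicate 2, where 17% did. The HOX windows held 0.247% of all clusters and 0.166% of enriched clusters in replicate 1, and 0.263% and 0.149% in replicate 2. The median log2 fold of the HOX clusters was 0.35 in replicate 1, where that of all clusters was 0.57, and 1.47 in replicate 2, where that of all clusters was 1.73.

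The share of enriched clusters varied between the windows. HOXD, whose HOXD13 and neighbours pattern the limbs, had the largest enriched share in both replicates, 10 of 45 clusters in replicate 1 (22.2%, 12.5 to 36.3) and 16 of 43 in replicate 2 (37.2%, 24.4 to 52.1). HOXB had 6 of 67 (8.96%) and 13 of 75 (17.3%), and HOXC had 4 of 61 (6.56%) and 7 of 48 (14.6%), the lowest share of replicate 2. The intervals of HOXB, HOXC and HOXD overlapped in each replicate. HOXA had 0 of 81 in replicate 1, where 3 counts of 81, the limit that a count of 0 allows, are 3.70% and the Wilson interval ends at 4.53%, and 23 of 89 in replicate 2 (25.8%, 17.9 to 35.8). HOXA thus gave the most enriched clusters of any window in replicate 2 and none in replicate 1. In replicate 1 its interval overlapped those of HOXB and HOXC but not that of HOXD, and in replicate 2 it overlapped all the others. Every window of replicate 2 lay below the 40.7% of all clusters. In replicate 1 HOXD alone lay above the 11.7% of all clusters.

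**Figure D1:**
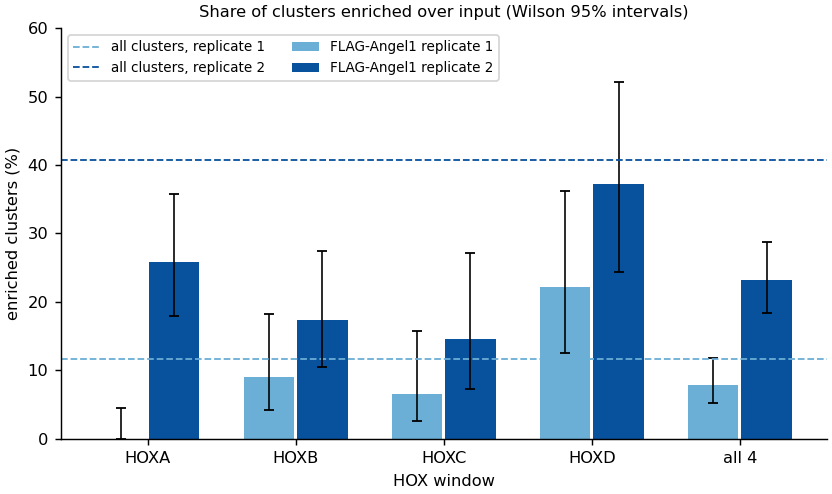
Percent of clusters in each HOX window, and in all 4 together, that were enriched over input in FLAG-Angel1 replicates 1 (light) and 2 (dark). Error bars are Wilson 95% intervals, and dashed lines give the share over all clusters of each library, 11.7% and 40.7%. HOXA has no bar in replicate 1 (0 of 81 clusters), and HOXD stands highest in both replicates.

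The reads behind these values could be inferred. Many deposited log2 folds lay on ratios of whole numbers of reads, and the deposited P then singled out 1 pair of read numbers for each of the 82 enriched HOX clusters. An input number of 1 cannot be told apart from a minimum of 1 set in processing. Enriched HOX clusters of replicate 1 held a median of 70 IP reads (37 to 146) over 1 to 11 input reads, and those of replicate 2 a median of 14 IP reads (8 to 43) over 1 to 18 input reads. With the most frequent log2 fold of a library read as 3 IP reads over 1 input read, an assumption, the IP library of replicate 1 came out 4.70 times as large as its input and that of replicate 2 0.904 times as large. Hence the same cluster needed more IP reads in replicate 1. Over 1 input read a cluster needed 30 IP reads to be called enriched in replicate 1 and 7 in replicate 2, and over 5 input reads it needed 61 and 14. The lower end of the 95% Clopper-Pearson interval of the fold was above 0 on the log2 scale in 19 of the 20 enriched clusters of replicate 1 and in 57 of the 59 of replicate 2.

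**Figure D2:**
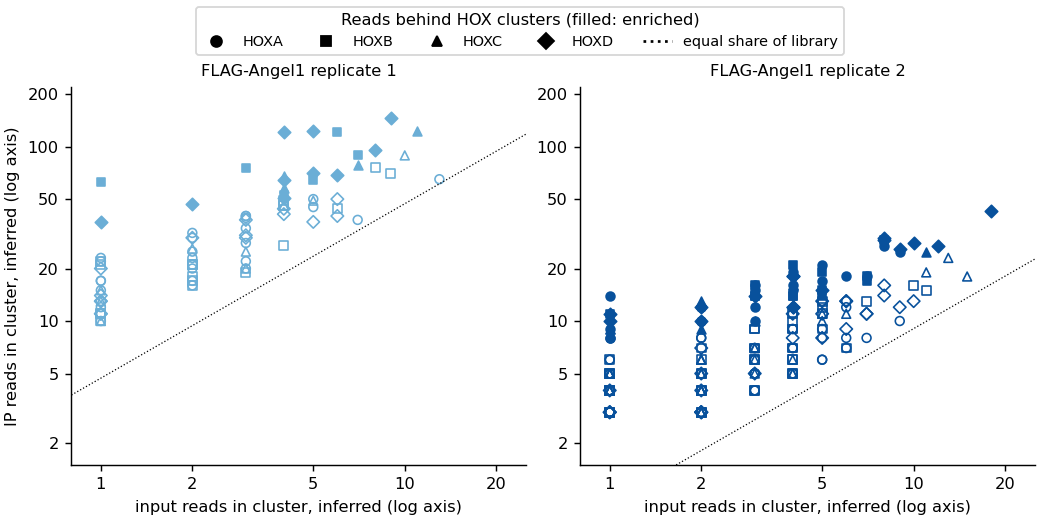
Inferred IP reads (y, log axis) against inferred input reads (x, log axis) of HOX clusters in each FLAG-Angel1 replicate. The dotted line marks equal shares of the IP and input libraries, filled symbols are enriched clusters, and symbol shapes give the window. Enriched clusters of replicate 1 begin at 37 IP reads, those of replicate 2 at 8, and no HOXA symbol is filled in replicate 1.

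In the HOXA window, enriched clusters of replicate 2 were gathered in the middle and toward the HOXA13 end. The largest group lay in chr7:27180847-27185538, from 50.8 to 55.5 kb into the window, where 9 of 11 sense clusters of replicate 2 were enriched and 0 of 9 in replicate 1. The shares over all clusters were 40.7% and 11.7%. This group was picked after its values were seen. It held the HOX cluster with the highest log2 fold of replicate 2, 3.95 at chr7:27182733-27182775, from 14 reads over 1. Replicate 1 had a cluster there too, chr7:27182675-27182829, with a log2 fold of 1.47 from 39 reads over 3, below the 45 IP reads needed. Next to it, chr7:27182867-27182996 of replicate 1 had 40 reads over 3 and chr7:27182876-27182963 of replicate 2 had 21 over 5 (log2 fold 2.22, enriched). Both replicates therefore held reads at these sites, with a fold above input in each, but neither cluster of replicate 1 was enriched. The Clopper-Pearson intervals of their log2 folds spanned 0, from −0.19 to 3.81 and from −0.15 to 3.84. In replicate 2 a log2 fold above 0 was held by 97.4% of all clusters and by 94.4% of HOXA clusters.

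Over the whole HOXA window, 16 of the 23 enriched clusters of replicate 2 overlapped a cluster of replicate 1. None of these was enriched, and 15 of 16 had a log2 fold above 0 in replicate 1, with a median of 1.16 (−0.03 to 1.67). A log2 fold above 0 was held by 68.8% of all clusters of replicate 1 and by 71.6% of its HOXA clusters. Over all overlapping pairs of the libraries, the median log2 fold in replicate 1 was 0.88. Over the whole list, 72.3% of the enriched clusters of replicate 2 overlapped a cluster of replicate 1 and 23.9% an enriched one. The largest number of IP reads in a HOXA cluster of replicate 1 was 65, over 13 input reads, at chr7:27184488-27184604 (log2 fold 0.09). There replicate 2 had 16 reads over 4 (log2 fold 2.14). Whether the replicates differed at single sites was not tested.

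In the HOXB window, enrichment common to both replicates was found at the HOXB1 end alone. All 6 enriched clusters of replicate 1 lay between chr17:46621015 and chr17:46629671, within 30 kb of the window's edge. HOXB1 and HOXB2, the first genes from that edge, act in the hindbrain, but no cluster was assigned to either gene. The cluster with the highest log2 fold of replicate 1 in any HOX window, 3.74, was chr17:46629534-46629671, with 63 reads over 1. Replicate 2 overlapped it at chr17:46629549-46629693, with 19 reads over 5 and a log2 fold of 2.07. At chr17:46621015-46621128 replicate 1 had 122 reads over 6 (log2 fold 2.11) and replicate 2, within the same stretch, 14 over 5 (log2 fold 1.63). Of the 13 enriched clusters of replicate 2, 9 lay farther in. Among these were chr17:46653545-46653632 (log2 fold 2.56) and chr17:46653641-46653718 (log2 fold 3.60, 11 reads over 1), where replicate 1 had 1 cluster with a log2 fold of 0.35. Another group, chr17:46702411-46703723, held 3 clusters of replicate 2, all enriched with log2 folds of 1.73 to 2.54, and 4 of replicate 1, none enriched, with log2 folds of −0.36 to 1.09. It too was picked after its values were seen, and the shares over all clusters were 40.7% in replicate 2 and 11.7% in replicate 1. Between chr17:46724210 and chr17:46805812 the sense strand carried no cluster of either replicate over 81.6 kb, the longest such gap in the 4 windows. Only 1 sense cluster, of replicate 2, lay beyond it toward the HOXB13 end, and it was not enriched.

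The HOXC window had the lowest median log2 fold in replicate 1, −0.12, and the lowest in replicate 2, 1.31. All 4 enriched clusters of replicate 1 lay at the HOXC4 end, from chr12:54446982 to chr12:54448945, among them chr12:54447817-54448000, with 123 reads over 11 (log2 fold 1.25), and chr12:54448001-54448032, with 68 over 4 (log2 fold 1.85). Replicate 2 had 6 clusters in the same stretch of about 2.02 kb, of which 3 were enriched, against 40.7% of all its clusters. The enriched clusters of the replicates did not overlap each other there. At chr12:54447840-54447955, for instance, replicate 2 had 23 reads over 13 (log2 fold 0.97) and was not enriched. The other 4 enriched clusters of replicate 2 lay between chr12:54394051 and chr12:54428489, with log2 folds of up to 3.31, from 9 reads over 1. HOXC13, a gene of hair and nail, stands at the opposite end, and of the sense clusters before chr12:54379832, 6 were of replicate 1 and 2 of replicate 2, none of them enriched.

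In the HOXD window, enriched clusters of both replicates stood together in the stretch nearer HOXD13. The densest lay at chr2:176972029-176974169, 22 to 24.2 kb into the window, with 8 sense clusters in replicate 1, of which 5 were enriched, and 10 in replicate 2, of which 6 were enriched. Of all clusters, 11.7% were enriched in replicate 1 and 40.7% in replicate 2, and this stretch was picked after its values were seen. A run of 3 directly abutting clusters of replicate 1 made up chr2:176972506-176972855, the longest run of abutting clusters in the windows at 350 nt, and all of them were enriched, with log2 folds of 2.68 (121 reads over 4), 1.79 (146 over 9) and 2.39 (123 over 5). Reads that span such a border can be counted in both clusters. The first of them had a −log10 P of 5.84, the strongest of any HOX cluster of either replicate.

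This run held the 1 HOX peak of the 2243 peaks (0.0446%) that were reproducible at 0.001, that is, formed by overlapping clusters past this threshold in both replicates on the same strand. The peak was chr2:176972603-176972855, 253 nt on the plus strand, the strand of the HOXD genes. Replicate 1 contributed the last 2 clusters of the run. Replicate 2 contributed chr2:176972620-176972722, with 43 reads over 18, a log2 fold of 1.40 (95% interval 0.58 to 2.28) and a −log10 P of 3.28. That fold was below the median of all clusters of replicate 2, 1.73, and of its HOX clusters, 1.47. The cluster held more IP reads than any other HOX cluster of replicate 2. The control had no cluster there, which sets no bound on background reads. Over the first cluster of the run, replicate 2 had 13 reads over 10 at chr2:176972536-176972558, a log2 fold of 0.52, and was not enriched.

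At 0.05 in both replicates, 8 of 6843 reproducible peaks (0.117%) were in the HOX windows, 4 in HOXB, 4 in HOXD and none in HOXA or HOXC. In HOXB these were chr17:46621015-46621128, chr17:46627901-46628109, chr17:46628372-46628530 and chr17:46629534-46629693. In HOXD they were chr2:176972306-176972399, the peak that passed at 0.001, chr2:176987853-176987964 and chr2:176988092-176988231. All 8 were on the strand of the HOX genes. None overlapped a control cluster, but the control had only 3 clusters in the HOX windows, so this sets no bound on background reads at the peaks. In replicate 1 their highest log2 folds ran from 1.34 to 3.74 and in replicate 2 from 1.40 to 2.37. The last of the HOXD peaks, for example, had 95 reads over 8 in replicate 1 (log2 fold 1.34) and 18 over 4 in replicate 2 (log2 fold 2.31).

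**Figure D3:**
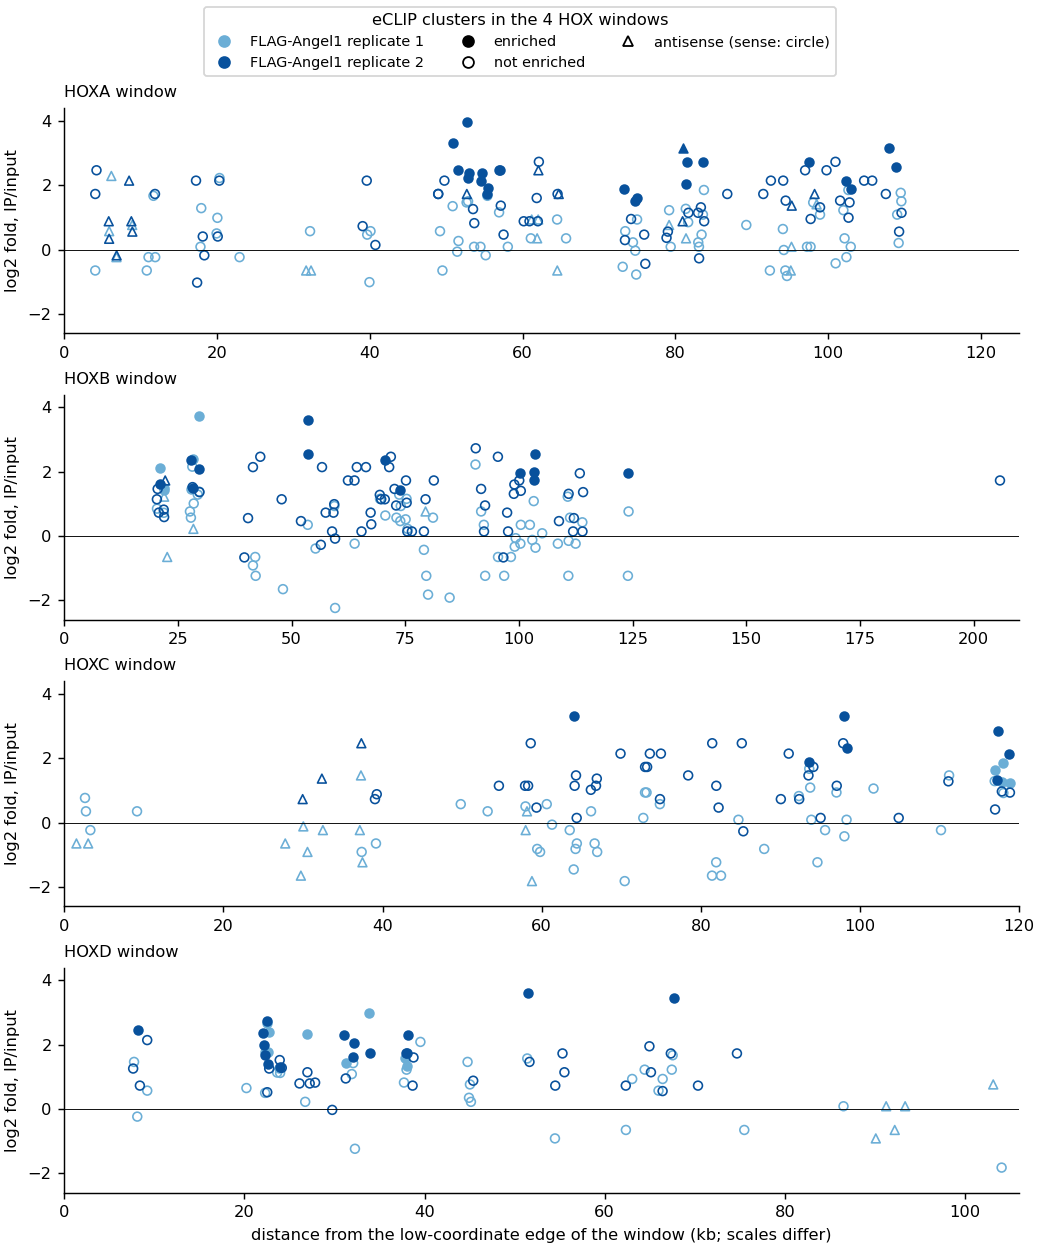
log2 fold of IP over input (y) of every FLAG-Angel1 cluster in the 4 HOX windows against its distance in kb from the low-coordinate edge of the window (x, a scale for each window). Light symbols are replicate 1, dark symbols replicate 2, filled symbols enriched clusters and triangles antisense clusters. Filled symbols of both replicates meet at 21.0 to 29.5 kb of HOXB, 117 to 119 kb of HOXC and 22.3 to 38.1 kb of HOXD, while those of HOXA are of replicate 2 alone.

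Other HOXD clusters were high in 1 replicate. In replicate 1, chr2:176983830-176983928 had a log2 fold of 2.98 from 37 reads over 1, and no cluster of replicate 2 overlapped it, although chr2:176983992-176984014 of replicate 2, close by on the same strand, was enriched with a log2 fold of 1.73 (12 reads over 4). In replicate 2, chr2:177001472-177001581 had a log2 fold of 3.60 from 11 reads over 1, and the overlapping cluster of replicate 1, chr2:177001402-177001537, had 1.57 from 14 reads over 1, under the 30 reads needed. The clusters with the highest folds mostly had 1 input read, and their intervals were wide, 0.41 to 8.32 and 0.82 to 9.03 for the 2 examples.

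Over clusters of any fold, overlap between the replicates was lower in the HOX windows than in the whole lists, whereas enriched HOX clusters overlapped some cluster of the other replicate at a share close to that of all enriched clusters. Of the HOX clusters of replicate 1, 111 of 254 (43.7%, 37.7 to 49.8) overlapped a cluster of replicate 2 on the same strand, against 52.6% of all its clusters. Of those of replicate 2, 111 of 255 (43.5%, 37.6 to 49.7) overlapped one of replicate 1, against 54.6%. Among enriched HOX clusters, 18 of 20 of replicate 1 (90%) overlapped some cluster of replicate 2, against 86.2% over all enriched clusters, and 9 of 20 (45%) an enriched one, against 76.8%. From replicate 2, 41 of 59 (69.5%) overlapped some cluster of replicate 1, against 72.3%, and 8 of 59 (13.6%) an enriched one, against 23.9%. When sense clusters of both replicates no more than 1000 nt apart were grouped, 94 groups formed, of which 63 held both replicates, 17 replicate 1 alone and 14 replicate 2 alone. Of these groups, 8 held an enriched cluster of replicate 1, 26 one of replicate 2 and 7 one of each. The 7 lay 2 in HOXB, 1 in HOXC and 4 in HOXD. Such groups were not formed over the whole lists, so no share over all clusters stands beside these counts. Whether they are usual for stretches as rich in clusters was not tested.

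Across the 111 clusters of replicate 1 with an overlapping cluster in replicate 2, 72.1% had the higher log2 fold in replicate 2, with a median difference of 0.68 (SD 1.25 over pairs), against 81.3% and 1.10 over all such pairs of the libraries. The Pearson correlation of the log2 fold was 0.10 and the Spearman correlation 0.088 over these pairs, against 0.22 and 0.18 over all pairs of the libraries. By window, Pearson's value was 0.21 in HOXA, 0.18 in HOXB, −0.32 in HOXC (18 pairs) and 0.089 in HOXD. All pairs come from the same libraries, and many rest on few reads. The median difference was 0.89 in HOXA, 0.57 in HOXB, 0.65 in HOXC and 0.22 in HOXD. Reads could be inferred on both sides in 60 of the pairs, which leaves out those with a P of 1 in either replicate.

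**Figure D4:**
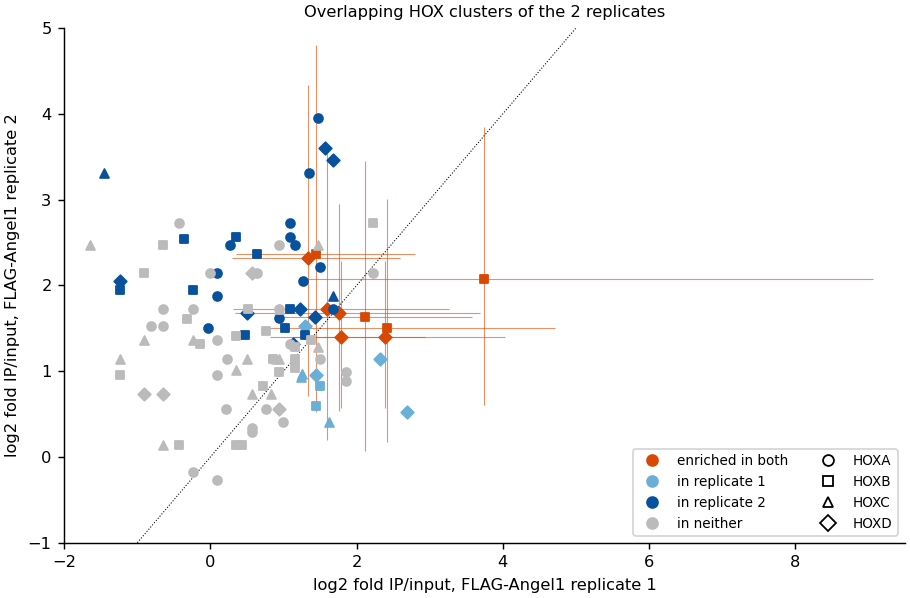
log2 fold of IP over input in replicate 1 (x) and replicate 2 (y) for the 111 HOX clusters of replicate 1 with an overlapping cluster in replicate 2. Colours give the replicates in which the pair was enriched, shapes the window, and the dotted line equal values. Lines at the 9 pairs enriched in both are 95% Clopper-Pearson intervals, and 72.1% of the 111 pairs lie above the dotted line. The pair at chr17:46659571-46659598, with a log2 fold of −2.23 in replicate 1, falls outside the x axis and is not shown.

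On the strand opposite to the HOX genes, 0 of 37 clusters were enriched in replicate 1 (Wilson 95% interval 0 to 9.41), against 9.22% of sense clusters. In replicate 2, 1 of 17 was enriched (5.88%, 1.05 to 27.0), against 24.4% of sense clusters. Both sense shares lay inside these intervals. The enriched one was chr7:27211063-27211133 in HOXA, with 8 reads over 1 (log2 fold 3.14). It was named because it was the single one. No antisense cluster was enriched in both replicates, and 7 of each replicate overlapped one of the other. The median log2 fold of antisense clusters was −0.12 in replicate 1 (sense 0.50) and 1.37 in replicate 2 (sense 1.47). Reads on the opposite strand faced a sense cluster of the same library in 8 of 37 and 1 of 17 cases. Whether antisense clusters fall on HOTAIR, HOXA11-AS or other antisense RNAs of the windows was not analysed here.

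The control gave 3 clusters in the HOX windows, all on the strand of the HOX genes and all enriched, as were 91.8% of its clusters. By the same inference its IP library was 0.0646 times the size of its input, so 2 IP reads over 1 input read sufficed for a call. In HOXA, chr7:27157532-27157539 and the abutting chr7:27157540-27157565 each had 4 reads over 1 (log2 fold 5.95), and the nearest FLAG-Angel1 cluster on that strand was 4515 nt away in replicate 1 and 7145 nt away in replicate 2. In HOXD, chr2:176981288-176981344 had 4 reads over 17 (log2 fold 1.87, 95% interval −0.16 to 3.48). It was overlapped by chr2:176981223-176981329 of replicate 1, which was enriched with 51 reads over 4 (log2 fold 1.44), and by chr2:176981250-176981296 of replicate 2, which was not, with 14 over 8 (log2 fold 0.95). Among enriched FLAG-Angel1 clusters in the HOX windows, this one alone overlapped a control cluster. The lists give no bound on background reads where the control had no cluster, which holds for all of HOXB and HOXC and most of HOXA and HOXD.

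Runs of abutting clusters, which the caller made where it split a stretch of reads, were short. In replicate 1 the longest held 3 clusters in HOXB (chr17:46621879-46622109, 2 of them enriched), 3 in HOXC (chr12:54447817-54448112, 2 enriched) and 3 in HOXD (the run above), and 2 in HOXA, none enriched. In replicate 2 the longest held 2 clusters in HOXA, HOXB and HOXD, and HOXC had no run. The 2 runs of replicate 2 in HOXD, chr2:176972227-176972391 and chr2:176982073-176982299, were enriched throughout, with log2 folds of 1.63 to 2.05. The latter held chr2:176982184-176982299, which had the strongest −log10 P of replicate 2 in any HOX window, 3.70 from 30 reads over 8. HOX clusters were 80.5 nt wide at the median in replicate 1 and 55 nt in replicate 2, against 60 and 50 nt over all clusters.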

How the data were processed

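Of 6 eCLIP libraries, the 3 IPs had cluster lists, which the authors called for each library on its own with an eCLIP pipeline on GRCh37. The submitters' processing notes name cutadapt, STAR, SAMtools and UMI-tools, with versions not given in the sources used here. Each deposited row holds a log2 value, the fold of the IP against its input. It also holds the −log10 of the authors' p-value, which is at most 400. This value is 0 for clusters not above input and also for some with a log2 fold above 0. Inputs entered only through these values.

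Overlaps, counts, medians, Wilson and Clopper-Pearson intervals were calculated in Python 3.11.15 (numpy 2.4.6, pandas 2.3.3, scipy 1.17.1, matplotlib 3.10.9). Library depth is not in the lists. Read numbers were inferred per cluster from the log2 fold (relative tolerance 1e-06) and the −log10 P (tolerance 0.002), using Fisher's exact test in its binomial limit when IP or input had fewer than 5 reads and a chi-square test otherwise. The ratio of IP to input library size was set by reading the most frequent log2 fold as 3 reads over 1. On data simulated under the same model, 200 of 200 planted read pairs were recovered for each library. The planted pairs all had a log2 fold above 0 and a P under 0.05, and the true library ratio was supplied. The simulation therefore tested neither the assumed ratio nor the clusters that were not enriched. Reads were inferred for 92 of 254 HOX clusters in replicate 1 and 231 of 255 in replicate 2, the rest mostly with a P of 1. No test was made between libraries, as the control is 1 library.

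The genes, windows and lists were chosen with earlier results of these data known. The rule for naming took reproducible peaks at 0.001, the 3 highest log2 folds among enriched clusters per library, control clusters, antisense clusters enriched in both replicates, and the longest runs of abutting clusters. Other clusters were named after their values were seen, as were the groups of clusters up to 1000 nt apart. Noncoding transcripts, paralogue groups, protein features and sequences were not analysed here, since no GRCh37 annotation or genome was used. Alternatives covered thresholds, overlap, strand, joining of abutting clusters, control overlap and each replicate alone.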

Additional observations from a re-analysis of the deposited data

How the results depend on the processing

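At a threshold of 0.001, enriched HOX clusters fell from 20 to 6 in replicate 1 and from 59 to 7 in replicate 2. Asking also for a log2 fold of 3 or more left 1 in each. Reproducible HOX peaks numbered 1, but 8 at 0.05 and 0 where each replicate had to reach a log2 fold of 3. Without one replicate, 6 to 7 clusters passed at 0.001. Requiring 50% reciprocal overlap lowered the overlap from 43.7% to 21.3% in replicate 1 and from 43.5% to 21.2% in replicate 2. Counted among enriched clusters alone, 45% of replicate 1 and 13.6% of replicate 2 overlapped an enriched cluster of the other replicate. Among enriched clusters, the sense share was 100% in replicate 1 and 98.3% in replicate 2, and the median log2 fold 1.70 and 2.22. In replicate 1 the median log2 fold was 0.85 over clusters that overlap replicate 2 and 1.29 over those with inferred reads (chosen after seeing the data). Groups of sense clusters, also so chosen, numbered 146 with gaps of up to 500 nt and 56, of which 41 held both replicates, with gaps of up to 2000 nt, in place of 94 and 63. In all, 36 values, the 45% among them, stayed within 1.5 times the count or within the interval of the reported value. No median log2 fold changed sign, and the other values, being counts, shares and ratios of densities, cannot. No paired analysis was possible because no result comes from a test between groups, and the inputs enter only through the fold and P that the authors set against each IP's own input.

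Over 1 input read, replicate 1 needed 30 IP reads for a call in any window, and more over a larger input. This need follows from the inferred ratio of IP to input library size. Library depth is not in the lists, and its part in the calls was not tested.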
